A study of Mus musculus with 123 samples.

Results

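The genes described here are 6 itch genes of dorsal root ganglion (DRG) neurons, taken by their symbols from a table of 24134 genes. Nppb and Sst encode the peptides natriuretic peptide B and somatostatin. Il31ra, Htr1f, Hrh1 and Cysltr2 encode receptors for the cytokine interleukin-31, for serotonin, for histamine and for cysteinyl leukotrienes. All 6 had a row, and their levels were read in single neurons and in pooled neurons after sciatic nerve transection (SNT), which severs the axons that many lumbar DRG neurons send to the hind limb.

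SNT was made on the right side of 2-month-old mice under ketamine and xylazine, and DRG neurons of the other side of the same mice were the control side. Day-3 samples came from female F1 mice of CAST/Eij males and C57BL/6 females, with the single cells labelled as L5 DRG, and day-7 samples came from L3 to L5 DRG of C57BL/6 mice of both sexes, so that day, strain, sex, DRG level, read length and instrument cannot be told apart and the days were set side by side without a test. Somata were picked by hand and sequenced by Smart-seq2, which reads full-length transcripts of 1 cell without molecular identifiers. After the authors' removal of 11 outlier cells there were 18 control-side and 41 SNT-side cells at day 3 and 14 control-side and 33 SNT-side cells at day 7. The pooled day-3 neurons of each side had been lysed in 1 tube and split into 3 parts, so the 3 libraries of a side were parts of 1 pool and not separate animals.

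Itch begins in a small set of unmyelinated sensory neurons whose endings in the skin carry receptors for pruritogens. One of these classes, the NP3 type, holds the peptides Nppb and Sst, which signal to spinal interneurons, together with Il31ra, its partner Osmr, Htr1f and Cysltr2. The interleukin-31 receptor needs Il31ra and Osmr in the same cell and signals through JAK and STAT proteins, Hrh1 and Cysltr2 couple to phospholipase C, and Htr1f is an inhibitory receptor.

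The injury factors ATF3 and JUN belong to protein families that bind the cAMP response element (CRE) and the AP-1 motif, and for this reason the promoters of the 6 genes were read for these letters. All 6 genes were matched in the RefSeq promoter table for GRCm38.p6, each window running from 250 bases before to 50 bases after the start of transcription on the strand of the gene. The letters TGACGTCA of the full CRE occurred in 1.79% of all 32851 windows, its shorter form TGACG in 20.8% and the AP-1 letters TGANTCA in 7.81%, counting both strands. The windows of 3 genes are shown: Sst, the 1 window of these genes with the full CRE, and Il31ra and Htr1f, the 2 genes whose mean was higher on the SNT side by a log2 ratio of 1 or more in cells of both days. Capitals mark the CRE, which contains the shorter form on both strands.
Sst, chr16:23890795-23891094, minus strand: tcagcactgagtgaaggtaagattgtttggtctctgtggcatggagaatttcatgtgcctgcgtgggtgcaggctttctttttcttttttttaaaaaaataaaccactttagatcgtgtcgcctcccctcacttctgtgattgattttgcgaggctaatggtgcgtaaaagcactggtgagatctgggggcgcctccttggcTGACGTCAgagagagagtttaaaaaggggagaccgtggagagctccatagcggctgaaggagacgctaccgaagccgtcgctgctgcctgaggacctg
Il31ra, chr13:112580613-112580912, minus strand: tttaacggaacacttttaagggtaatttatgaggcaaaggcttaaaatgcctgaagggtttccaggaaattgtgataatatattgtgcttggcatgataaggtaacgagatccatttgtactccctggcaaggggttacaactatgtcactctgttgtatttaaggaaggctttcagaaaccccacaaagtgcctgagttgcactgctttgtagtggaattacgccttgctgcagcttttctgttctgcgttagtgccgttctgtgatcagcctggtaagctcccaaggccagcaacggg
Htr1f, chr16:65105735-65106034, minus strand: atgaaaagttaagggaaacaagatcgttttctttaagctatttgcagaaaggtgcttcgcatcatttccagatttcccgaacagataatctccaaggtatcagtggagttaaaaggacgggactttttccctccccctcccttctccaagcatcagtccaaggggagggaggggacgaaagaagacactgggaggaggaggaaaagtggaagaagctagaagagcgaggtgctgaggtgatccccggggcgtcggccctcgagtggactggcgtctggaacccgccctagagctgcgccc
The Sst element began at position -48 from the start. The windows of Il31ra, Htr1f, Nppb and Cysltr2 held none of the 3 motifs. Hrh1 had 4 windows, of which 1 held an AP-1 motif at position -216. A match is only a match of letters.

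In the GRCm38 annotation (GENCODE M21) the genes lay on 5 chromosomes. Nppb spanned chr4:147985788-147987205 on the plus strand, Sst chr16:23889573-23890958 on the minus strand, Il31ra chr13:112519898-112594360 on the minus strand, Htr1f chr16:64924729-65105854 on the minus strand, Hrh1 chr6:114397936-114483296 on the plus strand and Cysltr2 chr14:73025603-73049114 on the minus strand. An exon of Il31ra overlapped a processed pseudogene, Gm3226, on the same strand, and reads of the 2 cannot be separated here. The other 5 genes overlapped no gene. The RefSeq starts behind the promoter windows need not be the ends of these spans. The deposited tables carry no coordinates and were made on the mm9 build.

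Total counts ranged from 261351 to 1849130 in the kept cells and from 563462 to 2003817 in the pooled libraries. At day 3 the SNT-side cells were deeper (median 1323932 counts) than the control-side cells (median 862619 counts). Levels are given in CPM, counts scaled to a library total of 1000000, and a cell was said to hold a gene above 10 CPM. The pooled sides were taken from the column names. The identifier line of that table pairs all 6 pooled libraries the other way round, which would turn the sign of every pooled change below, and their source label calls all 6 intact. In the libraries named SNT, Atf3, an injury factor, stood at 1551 ± 125 CPM (SD, n = 3) and in those named control at 12.8 ± 6.71 CPM. In single cells, Atf3 was above the highest control-side cell in 30 of 41 SNT-side cells at day 3 and in 12 of 33 at day 7, so that the SNT side held cells with and without this injury gene.

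The peptide genes were at or near 0 counts in almost every cell. Nppb was found above 10 CPM in 1 of the 106 kept cells, SNT-side day 3 cell 10, at 343 CPM, which was 364 of the 366 Nppb counts of its group. None of the kept control-side cells and none of the day-7 cells held a count of Nppb. Control-side day 3 cells 16 and 20, which the authors removed as outliers, held 1 count each. The 0 of 18 control-side cells at day 3 allow a share of up to 16.7% and the 0 of 33 SNT-side cells at day 7 a share of up to 9.09%, counting error only. Pooled neurons held 1 count of Nppb in 1 SNT library and 0 in the other 5.

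Sst was above 10 CPM in 0 of 106 cells. It had 2 counts in control-side cells at day 3, 1 count in SNT-side cells at day 3 and 0 at day 7, and all 6 pooled libraries were at 0. Neither peptide could be tested, since neither reached a mean of 1 CPM in the pools. A difference of the peptides between the sides was not detectable with these numbers of cells.

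Il31ra, the ligand-binding chain of the interleukin-31 receptor, had the largest log2 change of the 4 genes tested. In pooled neurons it stood at 45, 51.7 and 29.9 CPM in the 3 SNT libraries and at 1.30, 3.4 and 11.8 CPM in the 3 control libraries, each from few reads (72, 56 and 56 counts against 1, 3 and 7). The sides did not overlap. Il31ra rose 8.22-fold, from 5.49 ± 5.54 to 42.2 ± 11.2 CPM (SD, n = 3), a log2 change of 3.04 with an SE of 0.46 (edgeR, adjusted p = 2.0e-06). In pooled neurons fewer cells of a type and less RNA per cell cannot be told apart, here and in all pooled values below. The p-value measures the spread between parts of 1 pool. Without control library 3, which held 7 of the 11 control counts, the log2 change was 4.05.

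Of the 6 genes, 4 reached the limit for the test and 3 passed it, 1 higher and 2 lower on the SNT side. Among all 13509 genes tested, 16% passed in either direction, 8.85% higher and 7.1% lower.

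**Figure D1:**
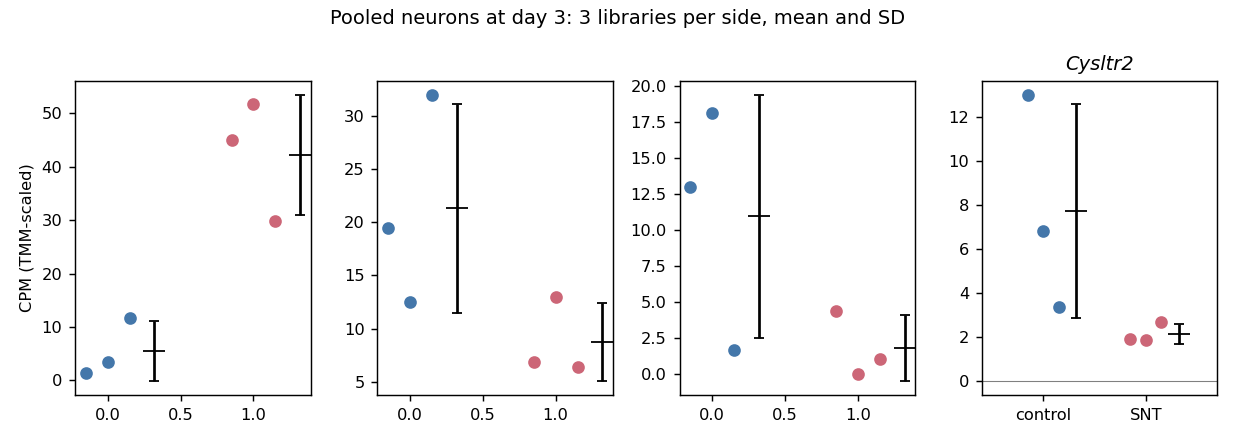
TMM-scaled CPM of 4 receptor genes in each pooled library at day 3 (points, 3 per side), with the mean and SD beside them. From left to right the panels show Il31ra, Htr1f, Hrh1 and Cysltr2, each with the control side at the left and the SNT side at the right. Each panel has its own linear axis. Il31ra was higher in all 3 SNT libraries, while Htr1f and Hrh1 overlapped between the sides and Cysltr2, which did not pass the test, did not overlap.

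Htr1f, a serotonin receptor, went the other way in the pools. Its libraries stood at 19.5, 12.5 and 31.9 CPM on the control side and at 6.88, 12.9 and 6.40 CPM on the SNT side. SNT library 2 was above control library 2, so the sides overlapped. Htr1f fell by 1.29 on the log2 scale with an SE of 0.47, from 21.3 ± 9.87 to 8.73 ± 3.64 CPM (edgeR, adjusted p = 0.041). The call ended in 7 of 14 alternatives, DESeq2 among them (adjusted p = 0.087), with adjusted p from 0.013 to 0.25 over all 14. It was lost without control library 1 (log2 change -1.34), control library 3 (-0.91), SNT library 1 (-1.14) or SNT library 3 (-1.09).

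Hrh1, the histamine receptor of itch neurons, stood at 13, 18.1 and 1.68 CPM in the control libraries and at 4.38, 0 and 1.07 CPM in the SNT libraries. Control library 3 lay within the SNT range. Hrh1 fell by 2.49 on the log2 scale with an SE of 0.81, from 10.9 ± 8.41 to 1.81 ± 2.28 CPM, on 27 counts against 9 (edgeR, adjusted p = 0.019). This call ended in 7 of 13 alternatives, DESeq2 among them (adjusted p = 0.051), with adjusted p from 0.0068 to 0.16 over all 13. It was lost without control library 1 (log2 change -2.41), control library 2 (-1.95), SNT library 2 (-2.05) or SNT library 3 (-2.15), and without SNT library 1 the log2 change was -3.88.

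Cysltr2, a leukotriene receptor, did not pass the test, with 7.72 ± 4.88 CPM in control and 2.13 ± 0.46 CPM in SNT libraries (log2 change -1.81, edgeR, adjusted p = 0.095). Its libraries did not overlap, at 13, 6.80 and 3.4 CPM against 1.88, 1.85 and 2.67 CPM, but they held 18 and 10 counts in all.

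Markers of other cells differed between the pools beside these values. The summed level of 10 glial genes was 4916 to 5659 CPM in SNT and 11179 to 13866 CPM in control libraries, that of 5 neuronal genes 13215 to 14910 against 7277 to 8389 CPM, and that of 4 genes of C-fibre low-threshold mechanoreceptors 83.1 to 141 against 433 to 604 CPM. The sums of 8 immune genes were 6.96 to 8.98 against 0 to 1.77 CPM. The part of these differences in the itch genes was not tested.

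In the single cells the labels tie no cell to a mouse, so each side and day counted as 1 sample and its values carry no test. Among these hand-picked cells Nefh, the neurofilament heavy chain of large myelinated neurons, was above 100 CPM in 24 of 41 SNT-side and 8 of 18 control-side cells at day 3, and in all 33 and all 14 at day 7. The 10 glial genes had median sums of 3196 and 1595 CPM at day 3, and of 1135 and 4730 CPM at day 7. Their part in the values below was not tested.

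Il31ra was spread widely over the SNT-side cells of day 3, from 0 to 801 CPM with a median of 23.8, and 40 of the 41 cells held at least a fraction of a count. The control-side cells lay between 0 and 10.8 CPM with a median of 0. Of the SNT-side cells, 27 were above the highest control-side cell. The means were 102.6 ± 192.5 CPM (SD over 41 cells) and 2.40 ± 3.85 CPM (SD over 18 cells), a log2 ratio of 4.93 on the scale of mean CPM + 1. A log2 ratio of 1 or more was reached by 6.78% of the 13644 genes compared at day 3. Above 10 CPM were 28 of the 41 cells after SNT (68.3%, with an exact binomial 95% interval from 51.9% to 81.9%) and 2 of the 18 control cells (11.1%, from 1.38% to 34.7%). Without SNT-side cell 46, whose 8 immune genes summed to 3307 CPM, they were 27 of 40. After each cell was thinned to 200000 counts the shares were 56.1% and 0%.

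At day 7 the 33 SNT-side cells lay between 0 and 36.6 CPM (median 1.17, mean 5.36 ± 10.4) and the 14 control-side cells between 0 and 5.73 CPM (median 0, mean 1.7 ± 2.20), a log2 ratio of 1.24, where 5.99% of 13264 genes reached 1 or more. The ratio was 0.39 with a pseudocount of 10 CPM, 1.49 in cells of females and 0.94 in those of males. Above 10 CPM were 5 of the 33 and 0 of the 14 cells, the latter of which allow a share of up to 21.4%. The 2 days differ in strain, sex, ganglia and sequencing, and no change over time was read from them.

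**Figure D2:**
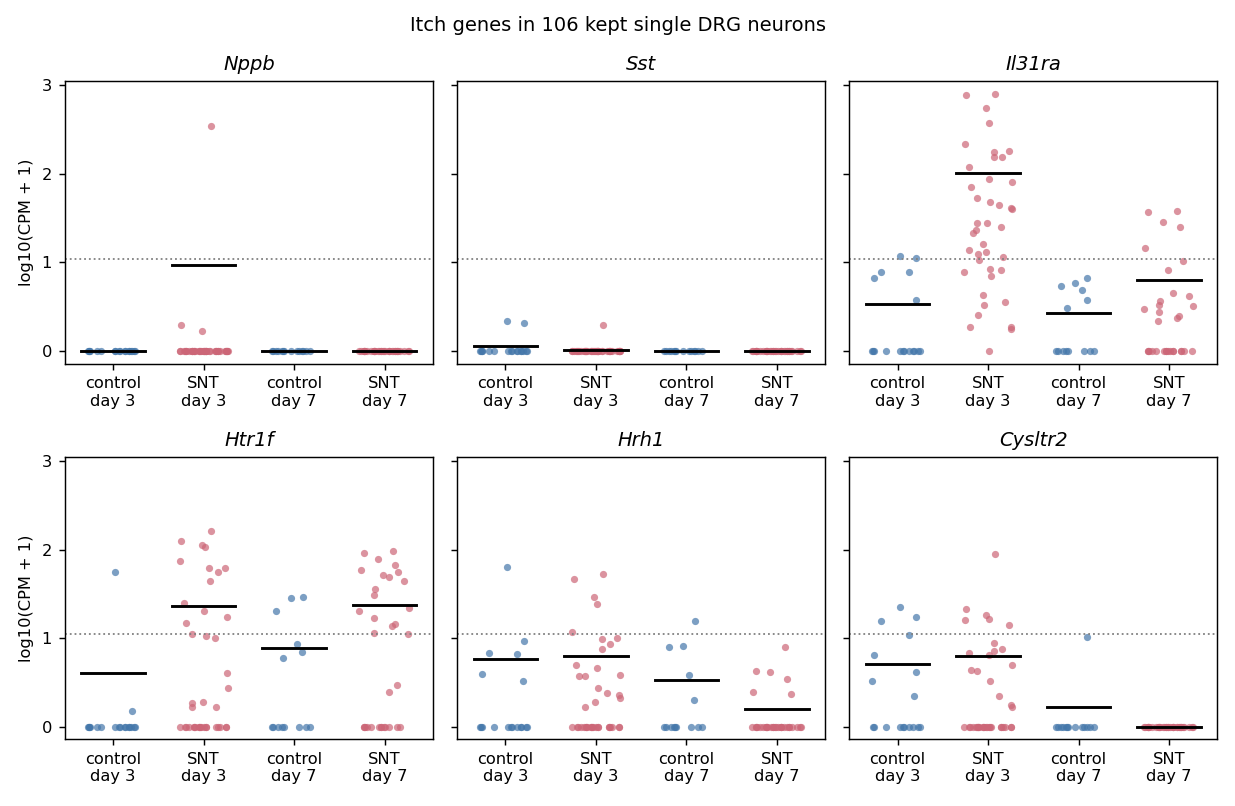
Level of each itch gene in the 106 kept cells, as log10(CPM + 1), by side and day; each point is 1 cell, the black bar marks the mean CPM of the group and the dotted line 10 CPM. Il31ra ran up to 801 CPM on the SNT side of day 3, Htr1f was higher on the SNT side of both days, and Nppb stood above the line in 1 cell.

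Htr1f was higher on the SNT side in cells, opposite in direction to the pools. At day 3 the SNT-side cells ran from 0 to 159 CPM (median 0.67, mean 22.1 ± 40.1) and 17 of 18 control-side cells were below 1 CPM, with 1 cell at 54.1 CPM (mean 3.03 ± 12.7). Above 10 CPM were 14 of 41 and 1 of 18 cells, and the log2 ratio was 2.52, 4.25 without the highest cell of each side and 0.74 by medians. At day 7 the SNT-side cells ran from 0 to 94.3 CPM (median 10.4, mean 22.9 ± 29.2) and the control-side cells from 0 to 27.8 CPM (median 0, mean 6.63 ± 10.3). Above 10 CPM were 18 of 33 and 3 of 14 cells, and the log2 ratio was 1.65, or 0.99 with a pseudocount of 10 CPM.

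The day-7 cells carry a label of sex. Htr1f in SNT-side cells averaged 38.1 CPM in 16 cells of females (12 above 10 CPM) and 8.66 CPM in 17 cells of males (6 above 10 CPM). In control-side cells it averaged 8.56 CPM in 7 cells of females and 4.70 CPM in 7 of males. The log2 ratio was 2.03 in females and 0.76 in males, and since no animal is named the difference between the sexes was not tested.

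Hrh1 ran from 0 to 51.8 CPM after SNT at day 3 (mean 5.23 ± 11.6, 5 of 41 above 10 CPM) and from 0 to 62.5 CPM in control cells (mean 4.85 ± 14.6, 1 of 18). The log2 ratio was 0.09, or 1.04 without the highest cell of each side. At day 7 it was above 10 CPM in 0 of the 33 cells after SNT, which allow a share of up to 9.09%, and in 1 of the 14 control cells, with means of 0.57 and 2.32 CPM. Its log2 ratio was -1.09, and 3.63% of all genes stood at -1 or less. That value was 0 by medians, -0.22 with a pseudocount of 10 CPM, -0.81 without the highest cell of each side, -1.85 in cells of females and -0.13 in those of males.

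Cysltr2 at day 3 averaged 5.26 ± 14.3 CPM after SNT (0 to 87.6 CPM, 6 of 41 above 10 CPM) and 4.13 ± 6.76 CPM in control cells (0 to 21.3 CPM, 3 of 18), a log2 ratio of 0.29. At day 7 none of the 33 cells after SNT held a count, and 1 of the 14 control cells did, at 9.29 CPM. Of the 5 genes compared at day 3 (Sst was too low), Nppb, Il31ra and Htr1f had a log2 ratio of 1 or more, as did 6.78% of all genes, and none stood at -1 or less, where 6.35% of all genes did. The ratio of Nppb rested on cell 10, being 3.2 with it and 0.059 without the highest cell of each side. In all, 64 of the 106 cells held at least 1 of the 6 genes above 10 CPM.

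The genes were then followed cell by cell. No gene was above 10 CPM in 42 cells, 1 gene in 44, 2 genes in 18, 3 genes in 1 and 5 genes in 1. Cells with 2 or more numbered 15 of 41 on the SNT side of day 3 (36.6%, exact binomial 95% interval 22.1% to 53.1%), 1 of 18 on the control side of day 3 (5.56%, 0.141% to 27.3%), 4 of 33 on the SNT side of day 7 (12.1%, 3.4% to 28.2%) and 0 of 14 on its control side.

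The cell with 5 genes was SNT-side day 3 cell 10. It held Nppb at 343, Il31ra at 801, Htr1f at 112, Hrh1 at 51.8 and Cysltr2 at 87.6 CPM, with 1 count of Sst (0.94 CPM). It had the highest Nppb, Il31ra and Cysltr2 of all kept cells. Of the other NP3 markers it held Osmr at 470 CPM, Nts, a neuropeptide, at 1014 CPM and Jak1 at 1081 CPM. However, Nts was above the highest control-side cell in 30 of the 41 SNT-side cells, and Jak1 in 14. Plxnc1, another NP3 marker, went the other way in this cell, at 82.9 CPM. Its means were 157 CPM in SNT-side and 279 CPM in control-side cells of day 3. In cell 10 Atf3 stood at 1948 CPM, and the median of the 28 SNT-side day-3 cells with Il31ra was 1941 CPM. Of the class markers P2rx3, an ATP-gated channel of unmyelinated neurons, stood at 1931 CPM. Lower in cell 10 were Calca, the gene of the peptide CGRP, at 156 CPM, Nefh at 98.0 CPM and Mrgprd, a beta-alanine receptor, at 25.4 CPM. The 10 glial genes of cell 10 summed to 70.5 CPM, the lowest of its group, and its 8 immune genes to 9.42 CPM.

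The cell with 3 genes, SNT-side day 3 cell 8, held Il31ra (12.2 CPM), Hrh1 (45.7 CPM) and Cysltr2 (17.3 CPM) with Atf3 at 2.03 CPM and Calca, the gene of the peptide CGRP, at 6250 CPM. The control-side cell with 2 genes held Il31ra (10.3 CPM) and Cysltr2 (21.3 CPM), Atf3 at 0 and Calca at 3538 CPM.

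**Figure D3:**
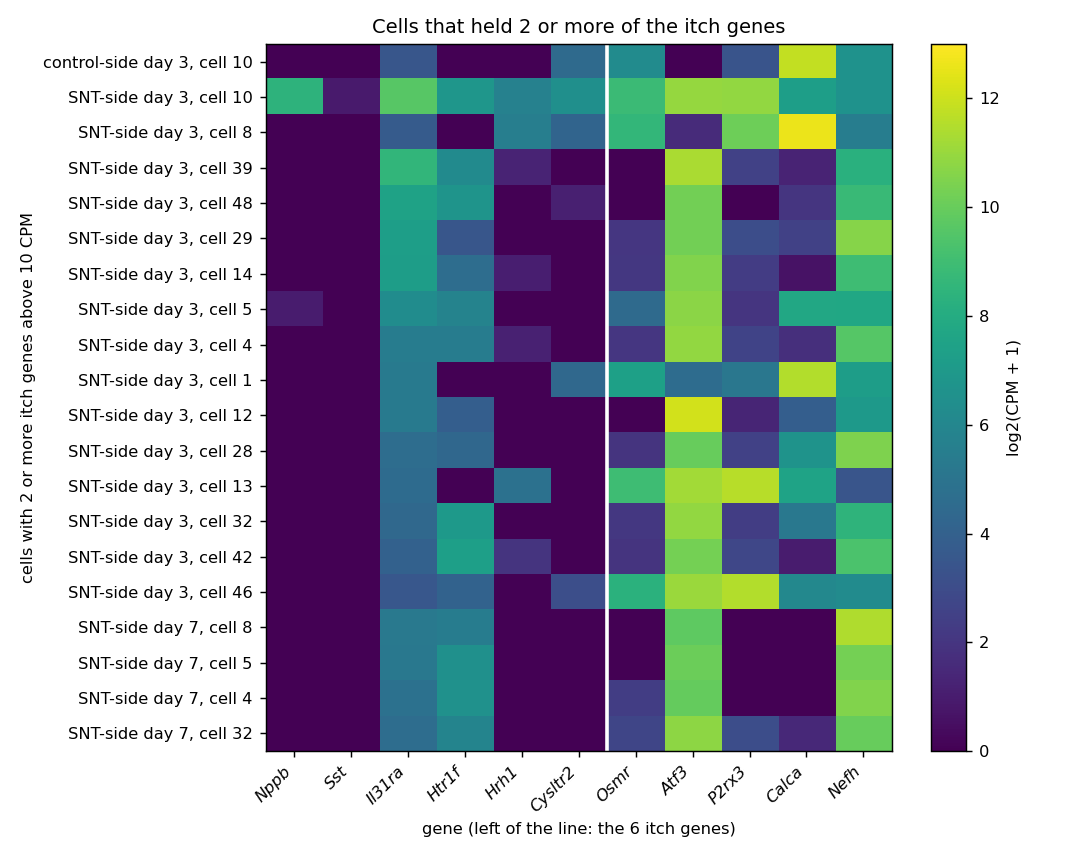
The 20 cells that held 2 or more of the 6 itch genes above 10 CPM (rows, by side and day), with their levels of the 6 genes and of Osmr, Atf3, P2rx3, Calca and Nefh (columns) as log2(CPM + 1) in colour. Most rows pair Il31ra with Htr1f and are high in Atf3 and low in P2rx3, and cell 10 of the SNT side at day 3 is the 1 row with Nppb above 10 CPM.

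None of the other 34 cells with Il31ra above 10 CPM held Nppb or Sst, the peptide markers of the NP3 type, above that limit. The commonest pair was Il31ra with Htr1f, which were also the 2 genes above 10 CPM in the most cells (35 and 36 of 106). It was found in 12 SNT-side cells of day 3, 42.9% of the 28 with Il31ra and 85.7% of the 14 with Htr1f. At day 7 it was found in 4 SNT-side cells, 80% of the 5 with Il31ra and 22.2% of the 18 with Htr1f. Of all SNT-side cells, 68.3% held Il31ra and 34.1% Htr1f at day 3, and 15.2% and 54.5% at day 7. Whether the pair was more frequent than these shares give was not tested. Hrh1 and Cysltr2 met in 2 cells, and each met Htr1f in 1 cell, cell 10.

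Cells with the receptors differed in their class markers. The 14 SNT-side day-3 cells with Htr1f had a median of 4.78 CPM of P2rx3 and 472 CPM of Nefh, and the other 27 cells had medians of 1156 and 93.2 CPM. At day 7, 0 of the 18 cells with Htr1f held P2rx3 above 10 CPM. Over all 106 cells the Pearson r of log2(CPM + 1) between Htr1f and P2rx3 was -0.64, a description over cells that share a side, a day and a dissection and differ in depth.

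The 5 SNT-side day-3 cells with Hrh1 all held P2rx3 at 550 CPM or more, and 22 of all 41 held it above 100 CPM. Of the 9 cells with Cysltr2, 8 also held Mrgpra3, a chloroquine receptor of another pruriceptor class, above 10 CPM, cell 10 being the exception. All 9 held Calca above 100 CPM. Among all day-3 cells, Mrgpra3 was above 10 CPM in 9 of 41 SNT-side and 11 of 18 control-side cells. Calca was above 100 CPM in 27 and 14 of them. In SNT-side day-3 cells with Il31ra both kinds occurred, with P2rx3 from 0 to 3087 CPM (median 103).

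Osmr, the partner chain that Il31ra needs, was above 10 CPM in 24 of 41 SNT-side and 10 of 18 control-side cells of day 3. Of the 28 SNT-side cells with Il31ra, 15 also held Osmr (53.6%), which was 62.5% of the cells with Osmr. Neither share exceeded that of all 41 SNT-side cells, of which 24 held Osmr and 68.3% held Il31ra. Both control-side cells with Il31ra held Osmr. At day 7 the pair was met in 1 of 5 SNT-side cells with Il31ra, while 4 of all 33 held Osmr. Over all kept cells, Osmr was present in 6 of 7 cells with Hrh1, in 7 of 9 with Cysltr2 and in 4 of 36 with Htr1f, and in 40 of the 106 cells.

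The level of Il31ra was set beside Atf3 in the same cells. Of the 28 SNT-side day-3 cells with Il31ra, 25 had more Atf3 than the highest control-side cell (75.7 CPM), and of the other 13 cells 5 did. The medians of Atf3 in these 2 sets were 1941 and 16.7 CPM. At day 7 the numbers were 4 of 5 and 8 of 28, against a highest control-side cell of 29 CPM. For Htr1f they were 13 of 14 against 17 of 27 cells at day 3 and 11 of 18 against 1 of 15 at day 7. The medians of Atf3 in cells with and without Htr1f were 1614 and 1696 CPM at day 3 and 924 and 0 CPM at day 7. Cysltr2 had the opposite order at day 3, with 1 of 6 cells against 29 of 35.

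**Figure D4:**
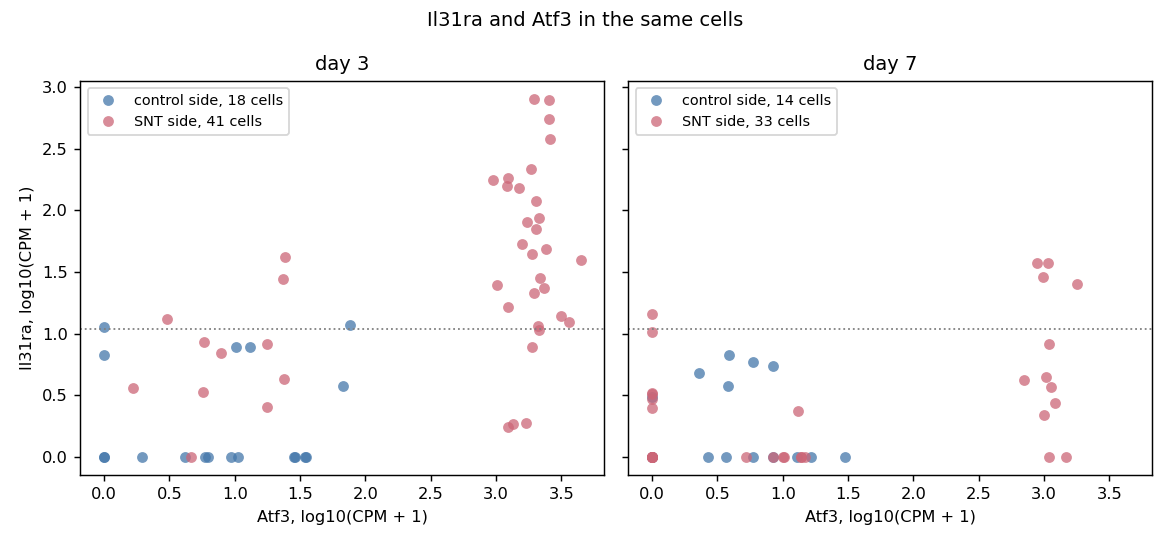
Il31ra against Atf3 in single cells as log10(CPM + 1) on both axes, for day 3 (left) and day 7 (right); each point is 1 cell, coloured by side, and the dotted line marks 10 CPM of Il31ra. Cells of the SNT side with high Atf3 ran from 0.75 to 801 CPM of Il31ra at day 3 and from 0 to 36.6 CPM at day 7.

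Within the SNT side the Pearson r of log2(CPM + 1) between Il31ra and Atf3 was 0.51 over 41 cells at day 3 and 0.46 over 33 cells at day 7. Between Htr1f and Atf3 it was 0.25 at day 3, where Spearman's rho was -0.0035, and 0.83 at day 7 (rho 0.84). Cells of 1 sample are not replicates, and these values are descriptions.

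By likeness over the 106 cells, among 12405 genes ranked, Il31ra was closest to Cltb (a clathrin light chain, r = 0.70), Ap1s1 (an adaptor subunit of clathrin-coated vesicles, r = 0.70) and Hn1 (r = 0.68). In the 32 control-side cells alone these genes ranked 123, 1786 and 2857. Htr1f was closest to Gabrg1 (a GABA-A receptor subunit, r = 0.81), A330050F15Rik (r = 0.80) and Fhod3 (a formin, r = 0.80), which ranked 20, 1 and 40 in the control-side cells. Cysltr2 was closest to Cmtm8 (r = 0.75), Slc16a12 (r = 0.73) and A3galt2 (r = 0.73), on 9 cells above 10 CPM, and these ranked 95, 3 and 6 in the control-side cells. For Hrh1, on 7 cells, P2rx2 led at r = 0.47, followed by Rspo1 (r = 0.43) and Atp6v1g1 (r = 0.42), which ranked 133, 245 and 243 in the control-side cells. By Spearman's rho P2rx2 ranked 342 (rho 0.25).

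The genes around the receptors were read in the pooled neurons from fixed lists. Beside the count of each list below, 8.85% of all 13509 genes tested rose and 7.1% fell, 16% in either direction. Of 17 genes of interleukin-31 partners and signalling, 14 were tested, 5 rose and 2 fell, with a median log2 change of 0.68 beside 0.02 over all genes. Among the rising genes were Stat5a, a transcription factor of cytokine signalling (log2 change 3.1, SE 0.49), Il13ra1 (3.00, SE 0.41) and Il4ra (2.08, SE 0.33), chains of the interleukin-4 and interleukin-13 receptor (edgeR, adjusted p at most 4.3e-06). Stat5a stood at 25, 35.1 and 33.6 CPM in the SNT libraries and at 2.60, 5.67 and 1.68 CPM in the control libraries, without overlap.

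Osmr went against Il31ra in the pools. It stood at 60.0, 37.9 and 30.9 CPM in SNT libraries and at 129, 114 and 138 CPM in control libraries and fell by 1.56 on the log2 scale with an SE of 0.23 (edgeR, adjusted p = 8.8e-07). Jak1 and Socs3, the other rising genes, lost their calls in 3 and 8 of 14 alternatives. Jak1 (log2 change 1.02) was at 0.96 without control library 3, and Socs3 (1.16) at 0.93 without control library 2, 1.12 without control library 3, 1.15 without SNT library 1 and 0.92 without SNT library 3. In day-3 cells Osmr averaged 83.0 CPM after SNT and 72.7 CPM in control cells, with a log2 ratio of 0.19. At day 7 it averaged 3.4 and 12.2 CPM, a log2 ratio of -1.58. The control side of day 7 held 1 cell at 121 CPM of Osmr, and its other cells were at 11.7 CPM or less.

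Of 19 further serotonin, histamine and leukotriene receptors 10 were tested, 1 rose and 3 fell (median log2 change -0.68). Htr3b, a subunit of the serotonin-gated channel, Htr4 and Htr2a fell, with log2 changes of -4.08, -2.71 and -1.85. Htr2a lost its call in 8 of 13 alternatives (log2 change -2.10 to -1.36). These included leaving out control library 1 (-1.77), 2 (-1.95) or 3 (-1.85) and SNT library 1 (-1.69) or 3 (-1.71). Htr1b rose, with 7.2, 11.5 and 12.7 counts in SNT libraries and 0 in the control libraries, at least 4.63-fold higher against a limit of 3 counts over the control side. In day-3 cells, however, Htr1b averaged 4.80 CPM after SNT and 13.7 CPM in control cells, and at day 7 11.2 and 15.7 CPM.

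Of 11 genes that carry the signal onward from itch receptors 10 were tested, 6 fell and 1 rose (median log2 change -1.52). The cation channels Trpv1 (167.6 ± 5.26 to 20 ± 5.37 CPM, n = 3) and Trpa1 fell, with log2 changes of -3.04 and -2.72 and SEs of 0.23 and 0.21. Plcb4, a phospholipase C, rose by 1.93 (SE 0.32). In day-3 cells Trpv1 averaged 73.9 CPM after SNT and 74.0 CPM in control cells. At day 7 it averaged 18.7 and 1.55 CPM, a log2 ratio of 2.95 and opposite in direction to the pools. Of the 33 SNT-side cells, 3 were above the highest control-side cell in Trpv1.

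Of 7 other pruriceptor receptors 6 were tested and 4 fell, Mrgprd, Lpar3, Lpar5 and Mrgprx1, with log2 changes of -9.91, -8.07, -7.79 and -1.44 (edgeR, adjusted p at most 0.00096). Mrgprd, a beta-alanine receptor, went from 958 ± 61.8 to 1.13 ± 1.45 CPM (n = 3). In day-3 cells the differences were smaller. Mrgprd averaged 142 CPM after SNT and 638 CPM in control cells, a log2 ratio of -2.16, and 3 of the 41 SNT-side cells held it above 100 CPM. The log2 ratios of Lpar3, Lpar5 and Mrgprx1 in these cells were -2.20, -2.14 and -0.045. The chloroquine receptor Mrgpra3 stood at 92.5 CPM in SNT and 178 CPM in control libraries, short of the fold required. Of the relatives and receptors of the peptides, 3 of 11 were tested and none passed, including Npr2 (43.7 and 42.9 CPM in control and SNT libraries). Without an adjustment, 1 of these 3 had a p under 0.05 (Sstr4, p = 0.015, edgeR; DESeq2 called neither of the 2 it adjusted).

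**Figure D5:**
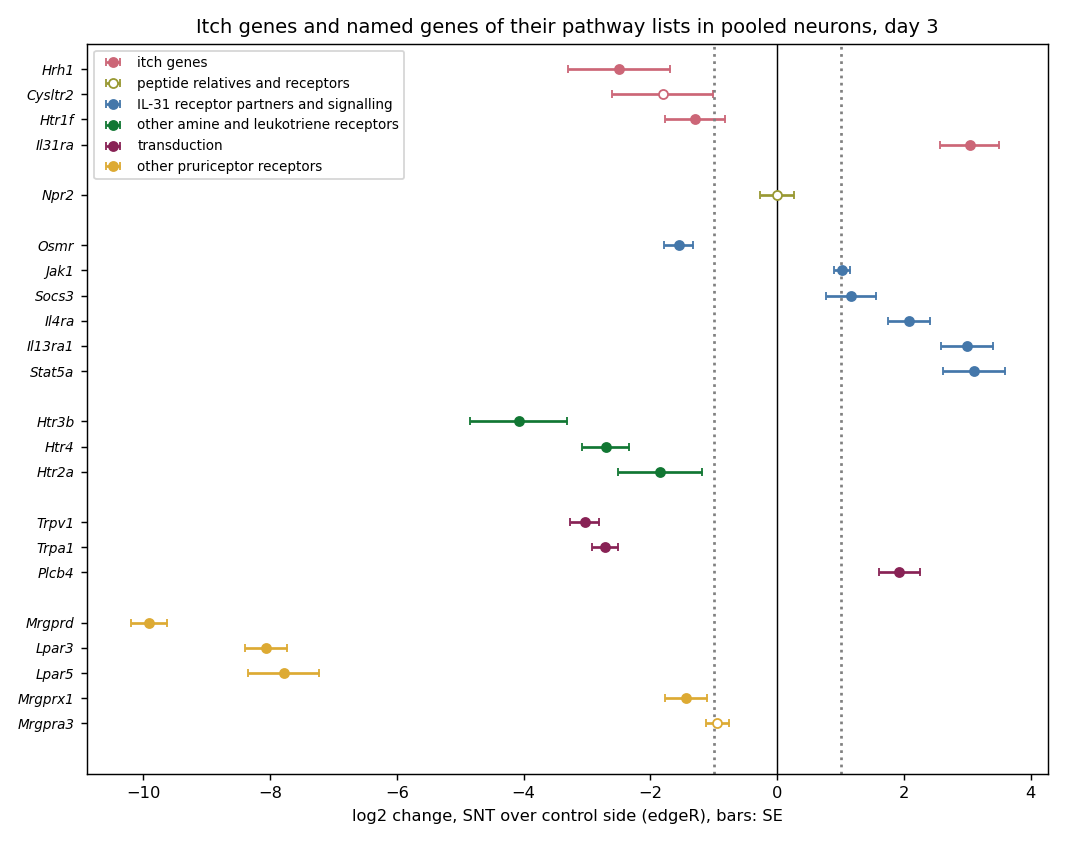
log2 change between SNT and control side in pooled day-3 neurons for the 4 itch genes tested and for the genes of the 5 pathway lists that the text names (rows), without those at 0 counts in all control libraries, with the SE as bars. Filled points passed the adjusted p and the fold of 2 (dotted lines at -1 and 1), open points did not. Il31ra, Stat5a, Il13ra1 and Il4ra lie to the right, while the pruriceptor receptors shown, Trpv1 and Trpa1 lie to the left.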

How the data were processed

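Per the labels and the submitters' processing notes, the authors used the mm9 build, CASAVA 1.8.2, Bowtie2 and RSEM, the last of which estimates counts per gene. The deposited tables are named for TPM, but their columns sum to 223967 to 2003817 and 60.7% to 93.6% of values above 0 are whole, so they were read as the authors' expected counts. The 2 tables held the same values, and 27 gene symbols that differed between them were taken from the table without outlier cells. Every value column had a sample. How the authors chose the 11 outlier cells was not re-examined, doublets were not searched for, and somata had been picked singly.

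Expected counts of the 6 pooled libraries were rounded to whole numbers and tested with edgeR 4.0.16 (quasi-likelihood, TMM scaling, mean of at least 1 CPM, prior count 0.125) in R 4.3.3. Changed meant a Benjamini-Hochberg adjusted p under 0.05 over all genes tested and a log2 change beyond 1. Pooled CPM are TMM-scaled, and marker sums and cell values are CPM of the column total. In cells, shares above 0 carry exact binomial 95% intervals, a share of 0 is given with 3 cells of the total as the limit it allows, which is lower than the exact 2-sided bound, the pseudocount was 1 CPM, and all intervals and limits cover counting error only, since reads without molecular identifiers are not independent molecules. Day-7 samples, whose protocol names both days, were placed by their titles. Alternatives were DESeq2 1.42.0, limma 3.58.1, other scalings, limits and pseudocounts, thinning, a block for library number and libraries left out. Python 3.11.15, pandas 2.3.3, scipy 1.17.1 and matplotlib 3.10.9 were used.

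The genes and lists were chosen with earlier results of these data known. Named were the 6 genes, the 3 list genes with the largest log2 change in each direction among those that passed, markers beside a result, injury genes, and for each gene in at least 5 cells the 3 genes with the highest Pearson r. Socs3, Jak1, Mrgprx1, Mrgpra3, Npr2 and Sstr4 were named after their values were seen. Some genes that this rule names are not reported here.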

Additional observations from a re-analysis of the deposited data

Results flagged for a closer look

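Among the 11 cells that the authors removed as outliers, which enter none of the comparisons above, 2 held Il31ra above the highest kept control-side cell of day 3 (10.8 CPM). SNT-side day 3 cell 40 stood at 33.4 CPM on 13 counts and cell 41 at 24.7 CPM on 12 counts. No group had the 4 to 10 samples needed to look for a sample far from the others.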

How the results depend on the processing

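Over all alternatives, 104 of 135 values for 18 main results kept their direction and side of the limit, or moved by less than the spread, and 109 of 132 did so for 36 others. None of these values reversed. For cell ratios the spread was the SD of log2(CPM + 1) over single cells of both sides, not an error of the ratio. Large moves could therefore count as kept, such as Htr1f at day 3 from 2.52 to 0.74 by medians. The tally does not measure the precision of the cell ratios. The number of changed genes was 2157, 1649 to 2244 over all alternatives and 1879 to 2150 with a library left out. With library size alone the median of all genes was -0.14 and the split was 980 higher and 1264 lower, against 1196 and 961. Il31ra was called in all 14 alternatives (2.56 to 4.05 with a library left out). Htr1f lost its call under DESeq2 (-1.32), limma (-1.17) and thinning (-1.40), and ran from -1.61 to -0.91 with a library left out. Hrh1 lost its call under DESeq2 (-2.57), limma (-2.08) and thinning (-2.25), and ran from -3.88 to -1.95 with a library left out. Cysltr2 passed in none of 13 (-2.13 to -1.25 with a library left out). A mean of at least 10 CPM left no value for Hrh1 and Cysltr2. Apart from the alternatives' own construction, the cause was not tested.

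The replicate block gave 2009 changed genes and log2 changes of 3.05 for Il31ra, -1.28 for Htr1f, -2.38 for Hrh1 and -1.71 for Cysltr2, and of the genes named it ended the call of Htr2a alone. Deviations of same-numbered libraries correlated at 0.129, 0.0072 and -0.026 over 9177 genes, so the numbers were not read as pairs.

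In cells, the day-3 log2 ratio of Nppb (3.2) was 0 for medians, 0.88 with a pseudocount of 10 CPM, 6.41 with 0.1 CPM and 0.059 without the highest cell. That of Cysltr2 at day 7 (-0.73) was 0 for medians, without the highest cell and in cells of females, -0.093 with 10 CPM and -2.93 with 0.1 CPM. At a limit of 1 CPM the share of cells with 2 or more genes was 38.9% and 90.2% at day 3 (control and SNT side) and 28.6% and 39.4% at day 7. At 50 CPM it was 0% and 9.76% at day 3 and 0% on the SNT side at day 7. After thinning it was 0% on the control side at day 3, and on the SNT side of day 3 it stayed within the exact interval of the main share (22.1% to 53.1%).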
